A study of Homo sapiens with 1 sample.

Results

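To describe the chromatin around the D cyclin genes CCND1, CCND2 and CCND3 and the genes of their kinases, CDK4 and CDK6, the ATAC-seq peaks of 786-O cells were analysed at these loci. Every peak was taken whose summit lay inside one of the 5 genes or within 300 kb of either end of the gene record, which includes the distal region upstream of CCND1 on chromosome 11. In total, 206 of the 88615 peaks on the primary chromosomes met this rule, with 43 at CCND1, 12 at CCND2, 47 at CCND3, 38 at CDK4 and 66 at CDK6. ATAC-seq marks open DNA, into which the Tn5 transposase inserts sequencing adapters. 786-O is a human cell line of clear cell renal cell carcinoma, and the cells analysed carried an empty vector as the control of a DPF3a overexpression experiment, whose other library is not analysed here. There was 1 library and no replicate, so no group comparison or p-value is given, and the values describe this library. Expression was not measured in these data.

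D cyclins are the regulatory subunits that bind and activate CDK4 and CDK6. The active kinases phosphorylate the retinoblastoma protein and its relatives, which frees E2F transcription factors and carries cells from G1 into S phase. INK4 proteins inhibit CDK4 and CDK6 directly, and CIP/KIP proteins bind cyclin-CDK complexes more broadly. In renal carcinoma cells without VHL, CCND1 is known as a target of the hypoxia-inducible factor HIF-2, with a distal enhancer upstream of the gene.

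The value of a peak is its fold enrichment, the pileup of reads or fragments at the summit over a single background for the whole genome. Folds in the list ran from 5.15, a pileup of 9, to 155.1, and the median was 10.8 over all peaks. The intervals beside the folds are exact 95% Poisson intervals of the pileup and cover counting error only. They do not cover differences between cultures, and a summit, as the highest point of its peak, is biased upward. The lowest fold had an interval of 2.64 to 9.32, and 78 of the 206 peaks (37.9%) had a pileup under 15, compared with 35.7% of all peaks. As a check of the label, promoter peaks were present at 3 of 4 renal epithelial markers (PAX8 with fold 31.9, PAX2 with 22.7 and CDH16 with 29.4, whereas at CDH6 only the peak interval overlapped a promoter) and at 0 of 7 markers of blood cells, endothelium and hepatocytes. Over all protein-coding genes the share was 61.4%, so the renal markers alone do not set the cells apart. Of the 7 other markers, the hepatocyte gene APOB had its nearest summit 648 bp from a TSS, but no peak interval overlapped its promoter.

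The sequences at 8 summits show what was open at the sites described below. Each is the reference sequence (hg38, plus strand, 5′ to 3′) of the 50 bases to each side of a summit, and capitals mark every match to the 13 motifs searched. The CDK4 and CCND3 promoter summits are shown because they were the strongest summits in a promoter of a member. The CDK6 summits are those of the broad peak over some of its start sites and of its strongest intronic peak. The CCND1 summits are the 3 of highest fold upstream of the gene, and the last is the only summit inside CCND2.
CDK4 promoter, chr12:57752498-57752598: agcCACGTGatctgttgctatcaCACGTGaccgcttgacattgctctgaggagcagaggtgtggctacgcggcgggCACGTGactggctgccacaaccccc
CCND3 promoter, chr6:41941891-41941991: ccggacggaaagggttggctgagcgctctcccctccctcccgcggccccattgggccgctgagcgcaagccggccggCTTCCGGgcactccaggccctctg
CDK6 broad peak, chr7:92832174-92832274: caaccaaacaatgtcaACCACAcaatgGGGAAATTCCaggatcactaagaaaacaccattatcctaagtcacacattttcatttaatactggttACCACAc
CDK6 intron, chr7:92642163-92642263: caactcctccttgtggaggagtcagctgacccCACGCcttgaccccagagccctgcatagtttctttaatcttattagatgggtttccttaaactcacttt
CCND1 upstream, fold 42.3, chr11:69497371-69497471: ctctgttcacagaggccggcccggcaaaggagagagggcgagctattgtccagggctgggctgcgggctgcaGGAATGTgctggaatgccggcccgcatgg
CCND1 upstream, fold 41.2, chr11:69419736-69419836: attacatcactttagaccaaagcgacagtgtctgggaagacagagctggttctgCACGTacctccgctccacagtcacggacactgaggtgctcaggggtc
CCND1 upstream, fold 26.8, chr11:69437173-69437273: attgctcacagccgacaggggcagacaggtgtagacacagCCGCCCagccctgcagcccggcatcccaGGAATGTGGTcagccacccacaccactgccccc
Summit inside CCND2, chr12:4277040-4277140: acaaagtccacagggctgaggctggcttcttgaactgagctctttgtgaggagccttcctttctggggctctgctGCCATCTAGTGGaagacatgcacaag
The capitals are E-boxes with the hypoxia response core they contain in the CDK4 promoter, an ETS site in the CCND3 promoter, RUNX, NF-κB and RUNX sites in the CDK6 broad peak, a hypoxia response core in the CDK6 intron, a TEAD site in the first CCND1 sequence, a hypoxia response core in the second, a GC box and a TEAD site that runs into a RUNX site in the third, and a CTCF site inside CCND2.

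The promoters of the members were then compared. As promoters, the stretches between 1 kb before and 100 bp after every annotated transcription start site (TSS) were used, and a promoter peak is one with its summit in such a stretch. CDK4, CCND3 and CCND1 had one, CCND2 and CDK6 did not, so 3 of the 5 genes had a promoter peak. Among all 20033 protein-coding genes it was 61.4%. The folds fell in the order CDK4, CCND3 and CCND1.

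CDK4, a kinase that D cyclins activate, is encoded on chromosome 12 (57747727 to 57756013, minus strand). The summit of its promoter peak (57751593 to 57752930) was 238 bp upstream of the canonical TSS, with a fold of 62.3 (51.8 to 74.5), which was higher than 95.9% of promoter peaks in the list and 98.1% of those on chromosome 12. The same peak held the promoter summit of 12 of the 14 TSSs of the gene. The sequence around the summit contained 3 copies of the E-box CACGTG, the site of MYC and related factors. Of all 17170 promoter summits, 525 (3.06%) had at least 1 copy within 50 bp, 27 had at least 2 and 3 had at least 3. The copies were counted after this sequence had been seen, and a match does not show that a factor was bound.

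CCND3, the D cyclin gene with the most annotated start sites among the members, is encoded on chromosome 6 (41934934 to 42050357, minus strand). Its strongest promoter peak (41940609 to 41942583) lay at the canonical TSS, with the summit 133 bp upstream, a width of 1975 bp and a fold of 31.9 (24.6 to 40.9). The sequence at this summit contained an ETS site, CCGGAAG on the other strand. More than 100 kb upstream, the longer transcripts of CCND3 start at separate promoters. The outermost of them, which faces TAF8, a gene of a general transcription factor subunit, had a fold of 24.2 (17.9 to 32.1). A weak peak at the TSSs between them had a fold of 6.18 (3.34 to 10.7). The intervals of the canonical and the outermost promoter overlap, and that of the weak peak overlaps neither.

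CCND1, the most studied of the D cyclin genes, is encoded on chromosome 11 (69641156 to 69654474, plus strand). The summit of its promoter peak (69640731 to 69641468) was 19 bp downstream of the canonical TSS, with a fold of 17.0 (11.8 to 23.8), higher than 43.7% of promoter peaks. A downstream start site had a peak of its own with a fold of 10.3 (6.41 to 15.8). In the same stretch, 6 summits followed each other within 7.82 kb around the start of the gene, with folds from 6.70 to 17.5.

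CDK6, the other D cyclin kinase, is encoded on chromosome 7 (92604921 to 92836573, minus strand). Some of its TSSs were open, although no summit lay in its promoters. A single peak of 6219 bp (92831331 to 92837549) covered 3 of its 5 TSSs, the canonical one included. Its only summit lay 4349 bp downstream of the canonical TSS, inside the gene, with a fold of 36.1 (28.2 to 45.5). It was the widest peak of the 5 windows, where the next had 3050 bp, and 7 peaks in the whole list were wider. If a promoter counted as open when any part of a peak overlapped it, 4 of the 5 members had a promoter peak, compared with 65.7% of protein-coding genes. Placed among the members by the fold of this peak, CDK6 stood between CDK4 and CCND3. The measures differ, as this fold is that of an intronic summit and the others are those of promoter summits. The interval of CDK4 overlapped no other, those of CDK6 and CCND3 overlapped each other, and that of CCND1 lay below both.

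CCND2 is encoded on chromosome 12 (4269771 to 4305353, plus strand). No peak overlapped the promoter of any of its 6 TSSs. The nearest summit lay 3328 bp downstream of the canonical TSS and 1541 bp from the nearest TSS, in a peak (4276867 to 4277360) at a promoter of the antisense gene CCND2-AS1, with a fold of 10.3 (6.41 to 15.8). Its sequence contained a CTCF site, a motif found at 1.08% of all promoter summits. This was the only summit in the gene record, and a summit with a pileup under 9 would not be in the list.

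**Figure D1:**
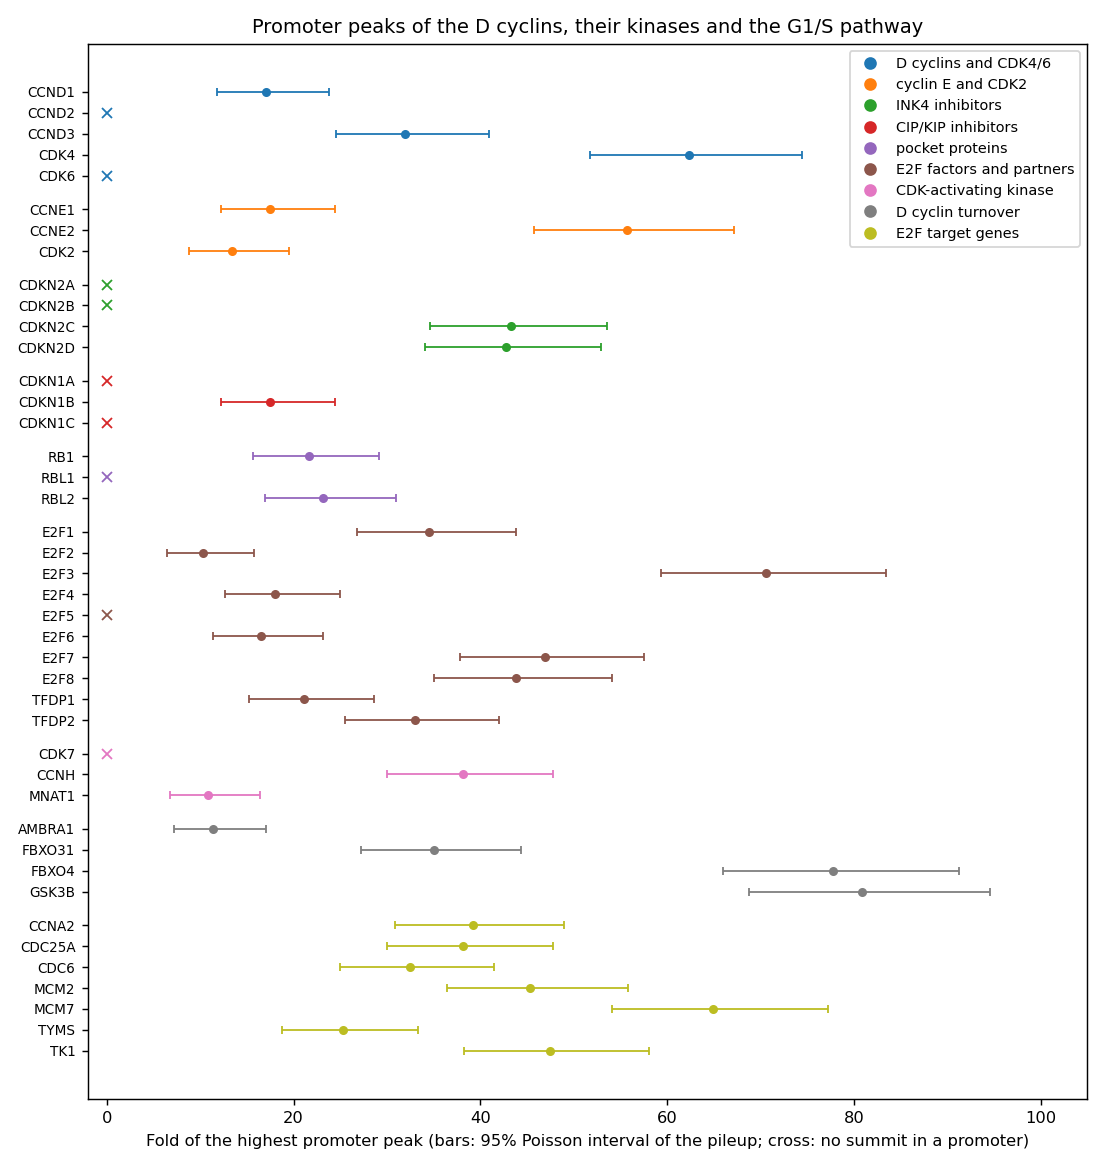
Points give the fold of the highest promoter peak of each gene, bars the 95% Poisson interval of its summit pileup, and crosses at 0 a gene without a summit in a promoter; colours mark the roles. CDK4 lies highest among the members at 62.3, CCND2 and CDK6 are crosses, and all 7 E2F target genes have a point, from 25.2 to 64.9.

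The surroundings of the genes also differed. The 5 windows, the genes with their flanks, measured 3.40 Mb and had 60.5 peaks per Mb (52.5 to 69.4). Windows built in the same way around all protein-coding genes had a median of 43.3 and an interquartile range of 27.9 to 62.9. Density was highest at CDK6, with 79.4 peaks per Mb (61.4 to 100.97), above 89.8% of all such windows. CCND1 had 70.1 (50.7 to 94.4), CCND3 65.7 (48.3 to 87.4) and CDK4 62.5 (44.2 to 85.7), above 82.5%, 78.0% and 74.4% of windows. CCND2 had 18.9 (9.76 to 33.0), above 13.9%. Its interval lay below the median of all windows and below those of the other 4 members, whose intervals overlapped each other. The windows also differed in how many genes start in them. A promoter peak was found at 2 of 5 protein-coding genes that start in the CCND1 window, 5 of 9 in that of CCND2, 12 of 19 at CCND3, 21 of 27 at CDK4 and 5 of 7 at CDK6.

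**Figure D2:**
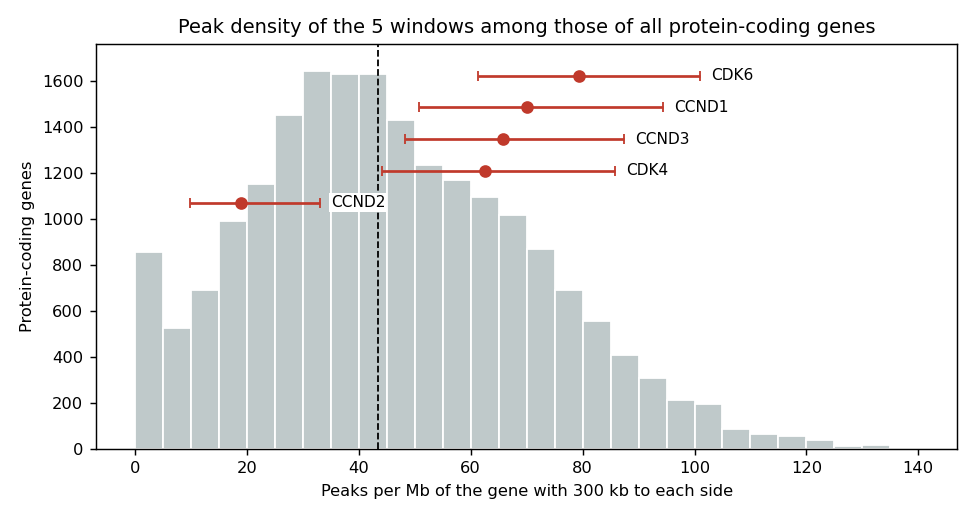
The histogram shows the peaks per Mb in the windows of 20033 protein-coding genes, the dashed line their median of 43.3, and the points with bars the 5 members with exact 95% Poisson intervals (their height on the vertical axis has no meaning). CCND2 lies below the dashed line and the other members above it.

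**Figure D3:**
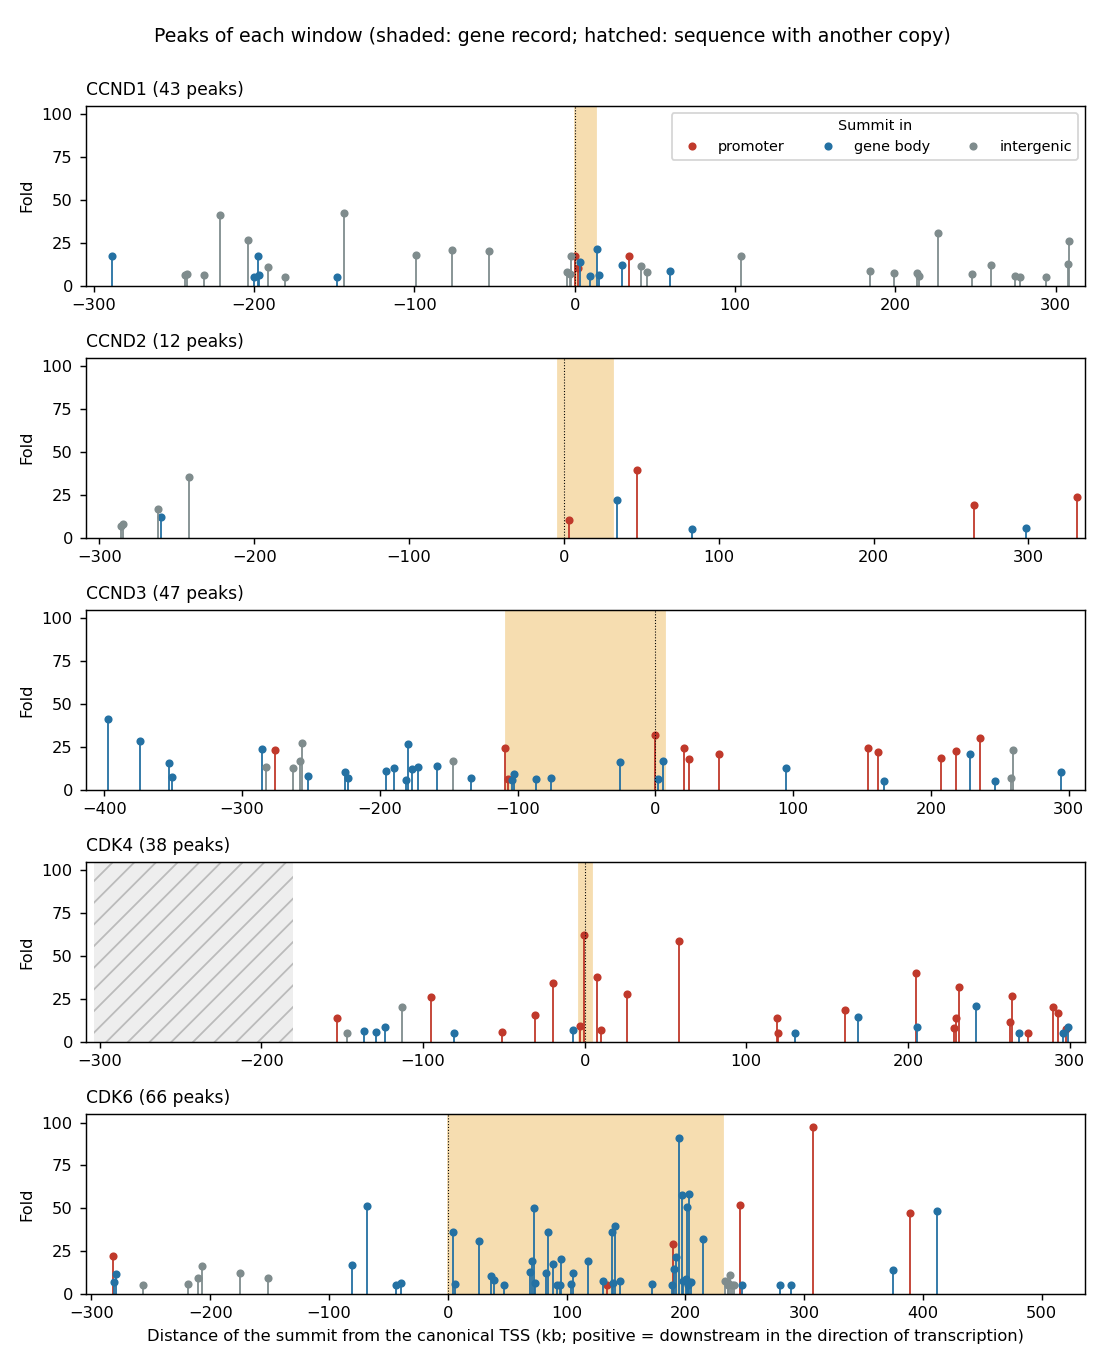
Each stem is 1 peak, with its fold enrichment on the vertical axis and the distance of its summit from the canonical TSS in kb on the horizontal axis, positive in the direction of transcription; shading marks the gene record and hatching the sequence with another copy in the reference. CCND2 has 12 peaks and a stretch of 245 kb without any, whereas 39 of the 66 peaks of the CDK6 window lie inside the gene.

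At CCND1, most peaks lay outside annotated genes and promoters. Intergenic summits made up 29 of 43, or 67.4% (51.5 to 80.9), compared with 26.7% of all peaks, and 3 (6.98%; 1.46 to 19.1) were at promoters. The upstream flank had 19 peaks and the downstream flank 20. Upstream, the strongest lay 143.7 kb from the TSS (69496976 to 69497766, 791 bp), with a fold of 42.3 (33.7 to 52.4), and 221.4 kb from it (69419225 to 69421175, 1951 bp), with a fold of 41.2 (32.7 to 51.2). Both intervals lay above that of the CCND1 promoter peak, 11.8 to 23.8. Another upstream peak, 203.9 kb away (69436739 to 69437602), had a fold of 26.8 (20.1 to 35.1), an interval that overlaps that of the promoter. Peaks between these and the gene, at 99.2, 76.6 and 53.3 kb, had folds of 18.0, 20.6 and 20.1.

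In steps of 100 kb, the upstream flank had 6 peaks within 100 kb of the TSS, 6 from 100 to 200 kb and 7 from 200 to 300 kb. Within these steps the peaks were not evenly spaced. No summit lay between those at 288.3 and 243.2 kb upstream, or between those at 143.7 and 99.2 kb. The 3 strongest peaks upstream differed in their motifs. The hypoxia response core was at the summit 221.4 kb upstream and TEAD sites were at the others. Of the 43 summits of the CCND1 window, 11 had the core, ACGTG or GCGTG (25.6%; 13.5 to 41.2), compared with 16.0% of all summits, a value within this interval. No peak of the window with an AP-1 site exceeded a fold of 17.5. Downstream, the strongest peaks were 226.7 kb from the TSS, with a fold of 30.9 (23.7 to 39.7), and 308.5 kb from it, with 25.8 (19.2 to 33.9). Just past the end of the gene, an intron of LTO1 had a peak with a fold of 21.1.

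At CDK6, the peaks were concentrated inside the gene. The gene record of 231.7 kb held 39 of 66 summits, or 168 per Mb. Among the 3667 protein-coding genes of at least 100 kb, whose median was 27.7 per Mb, 99.6% had a lower density. CCND3, with 115.4 kb the other member of that length, had 9 summits and 78.0 per Mb, above 90.4% of them. Toward the 3′ end of CDK6, 12 summits followed each other within 16.2 kb (92631791 to 92648024), each at most 5 kb from the next. Their folds ran from 5.15 to 91.2 with a median of 18.0. Such runs of 12 or more summits numbered 20 among 61902 runs in the list, where a single peak also counts as a run. Runs of at least 2 summits numbered 16773. This rule of counting was set after these peaks had been seen.

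The strongest intronic peak of CDK6 (92641605 to 92643409), 194.4 kb downstream of the canonical TSS, had a fold of 91.2 (78.3 to 105.6), higher than 99.7% of all peaks. The next in the gene, 203.2 and 196.9 kb downstream, had folds of 58.2 and 57.7, and they were followed by 50.5 at 201.3 kb and 50.0 at 72.7 kb. The FAM133B promoter had a fold of 52.04. Upstream of CDK6, in an intron of CDK6-AS1, a peak 68.0 kb from the TSS had a fold of 51.0 (41.5 to 62.1) and an AP-1 site at its summit. It was the strongest of the 13 peaks in that flank, whose median was 9.28.

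Because all folds share 1 background, each window was set beside its own chromosome. The median over all peaks was the same on chromosomes 7 and 11 as in the whole list (10.8), but promoter summits differed. They had a median fold of 25.8 on chromosome 7, compared with 19.6 on chromosome 6, 19.1 on chromosome 11 and 17.8 on chromosome 12. The fold of the CDK6 broad peak, taken at its intronic summit and not in a promoter, exceeded 78.8% of all promoter peaks but 64.7% of those on chromosome 7. The promoter peak of CDK4 exceeded 98.1% on its chromosome, that of CCND3 76% and that of CCND1 43.1%. Outside promoters, the median of the CDK6 window (9.28) was close to that of its chromosome (9.79). With promoter and other summits counted together, 16 of the 66 peaks of the CDK6 window had a fold over 30. The counts were 3 of 43 at CCND1, 2 of 12 at CCND2, 2 of 47 at CCND3 and 6 of 38 at CDK4, where all of them were at promoters. In the whole list, a fold of 30.9 was higher than 86.6% of peaks.

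**Figure D4:**
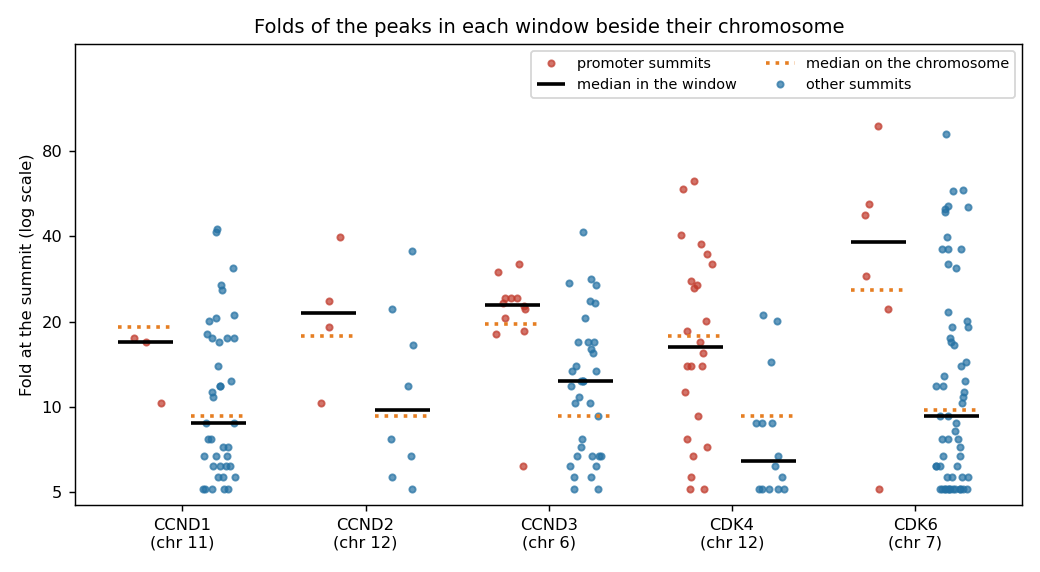
Each point is 1 peak, with its fold on a log axis, in red for promoter summits and in blue for other summits; black lines are medians in the window and dotted orange lines medians over the same class on the chromosome. The promoter summits of the CDK6 window have a median of 38.1 against 25.8 on chromosome 7, and the other summits of the CDK4 window one of 6.44 against 9.28 on chromosome 12.

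At CDK4, promoters dominated. Of 38 summits, 24 were at promoters (63.2%; 46.0 to 78.2), compared with 19.4% of all peaks, and 2 were intergenic. After CDK4 itself, the highest folds were at promoters of OS9 (58.7; 48.5 to 70.5), of DCTN2 (40.2), of TSPAN31 next to CDK4 (37.6; 29.5 to 47.2), of METTL1 and EEF1AKMT3 (34.5) and of DDIT3 and MBD6 (31.9). The intervals of CDK4 and OS9 overlapped, and those of the others lay below that of CDK4. Outside promoters the median fold was 6.44, compared with 9.28 on chromosome 12. The far end of the upstream flank (57932737 to 58056013, 123.3 kb) had 0 peaks. Taken as at most 3 peaks, this allows up to 24.3 per Mb, a limit set otherwise than the exact intervals. This stretch, where 0 protein-coding genes start, aligned to an alternative sequence of the reference at 99.97% identity, and reads that match more than 1 place had been removed by mapping quality. The part of the copy in the absence of peaks was not tested, and the copy itself had 0 peaks. Without it, the CDK4 window had 78.3 peaks per Mb (55.4 to 107.5). The other windows had no such stretch of at least 10 kb.

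At CCND3, 12 of 47 summits (25.5%; 13.9 to 40.3) were at promoters. The strongest peak of the window was not at CCND3 but in an intron of TRERF1, 397.1 kb upstream of the canonical TSS, with a fold of 41.2 (32.7 to 51.2), an interval that overlaps that of the canonical promoter. Its summit had an AP-1, a hypoxia response and a RUNX match. Other strong sites were a TFEB promoter (29.9), a further intron peak of TRERF1 (28.3), an intergenic peak 256.4 kb upstream (27.3) and an intron of C6orf132 (26.8). Inside the CCND3 gene, the peaks outside promoters had folds from 5.67 to 17.0, the highest of them in an exon 5.25 kb downstream of the canonical TSS.

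At CCND2, a stretch of 244.9 kb without a peak (4032008 to 4276866) ran from the upstream flank into the gene and contained the canonical TSS. Among stretches between neighbouring peaks it was the longest in the windows, where the next, at CCND1, was 80.2 kb (the ends of the windows beyond their last peaks are not counted). It had no copy among the alternative sequences aligned, and lost or otherwise unmappable DNA was not tested there. Beyond this stretch, a group of 5 upstream peaks began with an intergenic one 242.4 kb from the TSS and a fold of 35.6 (27.7 to 44.9). Downstream, the peaks were those of neighbouring genes. The TIGAR promoter had a fold of 39.7 (31.4 to 49.5), a second peak at TIGAR 22.2, a DYRK4 promoter 23.7 and the shared promoter of C12orf4 and RAD51AP1 19.1. The strong peaks of the CCND2 window were thus intergenic upstream and at other genes downstream, and none in CCND2 itself had a fold over 10.3.

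To see whether the 206 summits shared sequence features that the rule had not used, the motifs were counted within 50 bp on both strands, at promoters and elsewhere apart. Outside promoters, AP-1 sites (TGACTCA or TGAGTCA) were present at 29 of 157 summits (18.5%; 12.7 to 25.4), compared with 18.0% of all such summits. The hypoxia response core was at 14.6% (9.52 to 21.2) against 13.4%, RUNX (TGTGGT) at 12.1% (7.45 to 18.3) against 14.3% and TEAD (ACATTCC) at 4.46% (1.81 to 8.97) against 3.42%. The GC box (GGGCGG) was at 16 of 49 promoter summits (32.7%; 19.9 to 47.5) against 29.1%, and ETS sites at 8.16% (2.27 to 19.6) against 5.11%. In each case the share of all summits lay within the interval of the members, so no difference was detectable with this number of peaks. The E-box contains the hypoxia response core, and such windows counted for both. Matches to E2F (TTTCCCGC, TTTGGCGC or TTTCGCGC) and TCF/LEF (ATCAAAG) were found at 1 of the 206 summits each (0.49%), against 0.39% and 1.15% of all summits. NF-κB matches were at 3 (1.46%) against 2.06%, and CTCF matches at 4 (1.94%) against 2.23%. The CRE (TGACGTCA) and the full HNF1 site were at 0, a share whose exact 95% interval reaches 1.77%, against 0.26% and 0.0034%. Each of these shares of all summits also lay within the interval of the members.

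By window, AP-1 sites were at 9 of 43 summits at CCND1, 9 of 47 at CCND3 and 10 of 66 at CDK6. They were at 2 of 38 at CDK4 and 0 of 12 at CCND2, compared with 15.7% of all summits. The intervals of these shares all overlapped and each contained the share of all summits, so no unevenness was detectable. These counts pool promoter and other summits. Outside promoters they were 9 of 40 at CCND1, 9 of 35 at CCND3, 10 of 60 at CDK6, 1 of 14 at CDK4 and 0 of 8 at CCND2. Median GC content was 63.4% at promoter summits of the windows and 50.5% at the others, compared with 62.4% and 47.5% in the whole list.

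**Figure D5:**
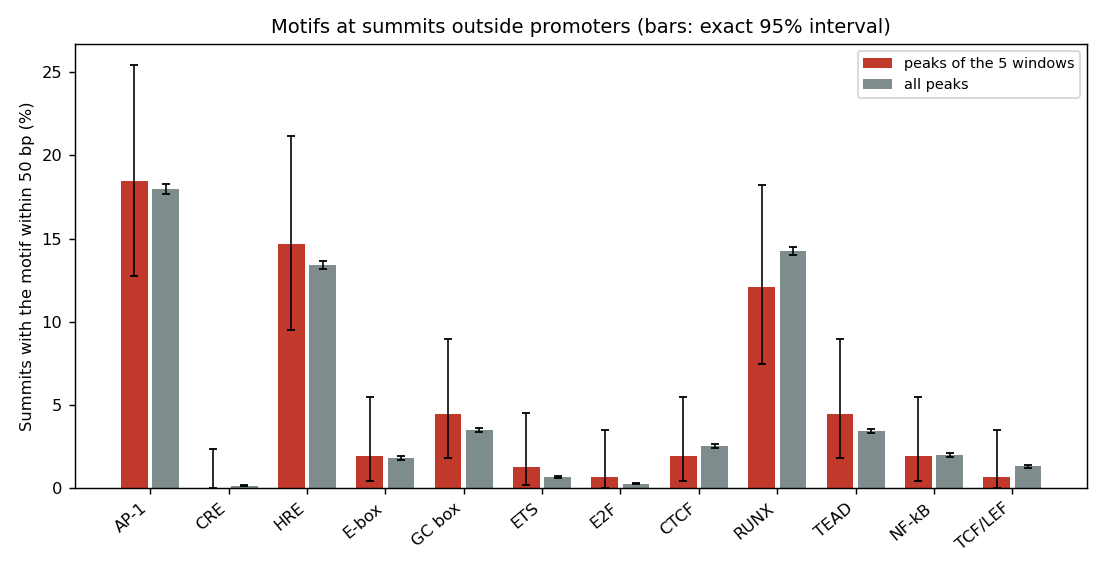
Bars give the percentage of summits outside promoters with a motif within 50 bp, in red for the 157 summits of the windows and in grey for all 71445, with exact 95% intervals. Every grey bar lies within the interval of the red bar beside it.

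The members act within a pathway, and the promoters of 37 other genes of the G1/S transition were examined by role. A promoter peak was found at 30 of them (81.1%), with a median fold of 34.8, beside 61.4% and a median of 25.8 among protein-coding genes. With overlap of the peak interval it was 33 of 37. The list was drawn up from general knowledge with earlier results of these data known, so the counts are a description.

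All 7 E2F target genes examined, which serve DNA replication and the cell cycle, had a promoter peak, from TYMS (25.2; 18.8 to 33.3), thymidylate synthase, to MCM7 (64.9), a subunit of the replicative helicase. All 4 genes of D cyclin turnover had one too. These ranged from AMBRA1 (11.3; 7.21 to 17.1), the ubiquitin ligase adaptor of D cyclins, to GSK3B (80.9; 68.8 to 94.6), a kinase that marks CCND1 for export and degradation, with an interval that overlapped that of FBXO4 (77.8). In the next module of the cycle, CDK2 had 13.4 (8.85 to 19.5), CCNE1 17.5 and CCNE2 55.7 (45.7 to 67.1). Among E2F factors and partners the count was 9 of 10, from E2F2 (10.3) to E2F3 (70.6; 59.3 to 83.4), and E2F5 had its nearest summit 177 bp from a TSS but outside the promoter window.

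The inhibitors differed among themselves. Of the INK4 genes, CDKN2C (43.3; 34.6 to 53.5) and CDKN2D (42.8; 34.1 to 53.0) had promoter peaks. CDKN2A and CDKN2B had none, and their nearest summits were 66018 and 101822 bp from a TSS. Lost or unmappable DNA would also leave no peak, and neither was tested at these genes or at CDK7 below. Their absent peaks therefore do not show that the promoters were closed. Of the CIP/KIP genes, CDKN1B had a fold of 17.5 (12.2 to 24.4). CDKN1A, the p21 gene, had no summit in a promoter but a peak interval that overlapped one, and CDKN1C had its nearest summit 2778 bp away. Among the pocket proteins, RB1 (21.6) and RBL2 (23.2) had a promoter peak and RBL1 an overlapping interval with its summit outside. Among the genes of the CDK-activating kinase, which phosphorylates CDK4 and CDK6, CCNH (38.1) and MNAT1 (10.8) had a promoter peak, and CDK7 had its nearest summit 45140 bp from a TSS.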

How the data were processed

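The data were the ATAC-seq peak list of 1 empty-vector library of 786-O cells. Per the study's methods and the submitters' processing notes, the authors used fastp for trimming, Bowtie2 2.3.4.3 with hg38 for alignment and MACS2 2.2.6 with 1 genome-wide background for peak calling, after removal of duplicates and of mitochondrial or poorly mapped reads. The versions are those of the notes, as the methods give none for the ATAC-seq steps. A Tn5 shift is not stated, so summits may lie some bases from the cut. Peaks are named after wild type, against the label, which was followed.

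The deposited fold is a ratio of the summit pileup plus 1 to the background plus 1. With a background of 0.941 all pileups were whole to within 1.83e-05. The deposited significance values are −log10 p-values and −log10 q-values, and the deposited score equals the latter times 10 without its decimals. The lowest score was 52. The total number of reads is unknown.

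GENCODE release 44 and the hg38 sequence were used, and all intervals lay within its sequences. Peaks were assigned by their summits. Intervals are exact Poisson or Clopper-Pearson intervals at 95%. The windows were aligned to 261 alternative sequences with minimap2 2.31 (at least 10 kb and 95% identity). Python 3.11.15, numpy 2.4.6, pandas 2.3.3, scipy 1.17.1, pysam 0.24.0 and matplotlib 3.10.9 were used, and the functions were tested on simulated data. The members, lists and motifs were chosen with earlier results of these data known. Named were all members, their promoter peaks, the 5 other peaks of highest fold per window, and pathway genes without a promoter peak or at the ends of their role's range. Further peaks, and the sequences of the CDK6 intron and inside CCND2, were picked after their values had been seen. Some listed genes and a neighbouring promoter are not reported here, and the list counts leave those genes out. Sequences in annotated UTRs and promoter sequences of CCND1 and CCND2 are not shown.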

Additional observations from a re-analysis of the deposited data

How the results depend on the processing

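No paired analysis was possible because the data hold 1 library. The alternatives with promoter peaks by overlap of the interval and without the aligned stretch at CDK4 were chosen after seeing the data. Of 102 values under an alternative, 69 stayed within their interval or within 1.5 times their count. Both totals hold a repeated entry of the median fold for flanks of 100 kb and of 500 kb. With a score above 100, 136 peaks remained in the windows, with 42.4 per Mb at CCND1, 41.1 at CDK4 and 49.3 at CDK6, a median fold of 17.5 and 30.9% at promoters. With a score above 200 there were 106 peaks, with 31.0 per Mb at CCND1, 41.9 at CCND3, 31.2 at CDK4 and 37.3 at CDK6, a median fold of 20.9 and 34.9% at promoters. Fewer and stronger peaks remain by construction. CCND2 stayed the lowest of the 5 densities, above 9.69% to 22.1% of the windows of all genes over these settings and other flanks; the other members stayed above 60.2% to 97.8%. With a score above 200, CCND3 had the highest density in place of CDK6. A flank of 100 kb left 111 peaks, with 125.1 per Mb at CDK6. Promoters of 1 kb or 2.5 kb to both sides raised the promoter share to 31.1% and 40.3%, and the canonical transcript alone lowered it to 17.5%. With 2.5 kb, 5 of the 5 members had a promoter peak, as the summit inside CCND2 (fold 10.3) and that of the CDK6 broad peak (36.1) then counted. AP-1 shares rose to 21.8% with 100 bp to each side and to 36.9% over whole peaks. The folds of the CCND1, CCND3 and CDK4 promoter peaks count among the 69 wherever they were computed. They are deposited values of single peaks, which most alternatives could not change, so this does not test them. With promoters of 2.5 kb to both sides, another peak gave the highest fold at CCND1, 17.5. Depth limits weak peaks most, and 29 of the 206 had the lowest pileup, 9.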
